A study of Mus musculus with 6 samples.

Results

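Translation factors are the proteins, other than ribosomal proteins and tRNA synthetases, that start and extend a polypeptide on the ribosome. Their genes were followed here in cultured mouse cells of a line called PPP3R1, either starved for 6 h or kept in normal medium. Members were all genes of the platform annotation whose symbols begin with Eif followed by a digit from 1 to 6, or with Eef followed by 1 or 2, leaving out the eIF2 kinase genes, Eif4ebp1 and Eef1e1, so that a few repressors and modifying enzymes are among them. 46 such genes, with 105 probe sets that name a single gene, were measured among 12393 genes and 22626 probe sets, and 6 further probe sets that name a member together with another gene were set aside. Expression was measured on 6 Affymetrix arrays, 3 of starved cells and 3 of cells in normal medium, called control here. PPP3R1 is also the symbol of calcineurin B. The sources used here do not state how that gene was altered, if at all, what the starvation medium held or how many clones the line came from. For the control, titles and series design name PPP3R1 cells in normal medium, while the growth and treatment protocols name wild-type mouse embryonic fibroblasts. The titles are followed here, and each difference that follows is subject to this conflict. The replicates are called biological, but no source says that they were separate cultures, so p-values cover only the spread of these arrays, which may be technical.

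Values are log2 intensities after RMA, a method that corrects background, brings the arrays to a common distribution and summarises the probes of a set, so a change of all messages in a single direction could not be seen. Differences are starved minus control, with the standard error (SE) from limma and n = 3 arrays per group, and a gene passed at an adjusted p of 0.05. Each gene is represented by its brightest probe set. In RNA of a whole culture, fewer cells of a type and less message per cell cannot be told apart. Arrays of a group correlated at 0.9977 to 0.9982 and arrays of different groups at 0.9864 to 0.9884. Control replicate 3 stood apart on the second principal component (-14.6, against 8.78 and 5.16 for the other control arrays), and calls that depend on it are named. Of 12 fibroblast markers 11 lay at 5 or higher, as did 3 of 6 leukocyte markers (Cd68, Cd14 and Csf1r), 1 of 6 epithelial markers and 0 of 5 endothelial markers. Thy1 was the fibroblast marker under that level. The 3 prime minus 5 prime difference of the Gapdh control probe sets ran from -0.11 to 0.00 in control and from -0.15 to -0.11 in starved arrays, and its part in the results was not tested.

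Initiation begins when eIF2, bound to GTP and the initiator tRNA, joins the small ribosomal subunit with eIF1, eIF1A, eIF3 and eIF5. The cap-binding factor eIF4E, the scaffold eIF4G and the helicase eIF4A bring in the message, the complex scans to the start codon, and eIF5B joins the large subunit. The exchange factor eIF2B then reloads eIF2 with GTP. In elongation eEF1A delivers each aminoacyl-tRNA, the eEF1B complex recharges eEF1A, and eEF2 moves the ribosome along. In starved cells protein synthesis is known to be held back mainly through changes in the phosphorylation state of eIF2, the eIF4E-binding proteins and eEF2. An array measures none of these.

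Of the 46 factor genes 11 were higher and 14 lower in starved cells, and 21 did not pass. The share that passed was 54.3%, against 40.8% of all genes measured. Of all genes measured 3509 lay under 5 in both groups, against 1 of the 46 factor genes. These dim genes are part of each share and median over all genes given here, and values without them were not computed. Whether the factor genes differ from genes of like brightness was not tested. The groups did not overlap in 32 factor genes, against 52.5% of all genes. By direction, 23.9% of the factor genes were higher against 20.8% of all genes, and 30.4% were lower against 20.1%. The median change was -0.04, against -0.01 over all genes, and the median absolute change was 0.21, against 0.16. The changes ran from -0.91 to 0.52, and 3 genes (6.52%) changed by at least 0.5, against 14.4% of all genes. Genes of eIF2B and the gene of eIF5A were among those that rose, and subunits of eIF3 changed in both directions. Of the 9 Eef genes 0 rose and 5 fell. These 9 include 4 genes for enzymes that act on elongation factors, of which 2 fell.

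**Figure D1:**
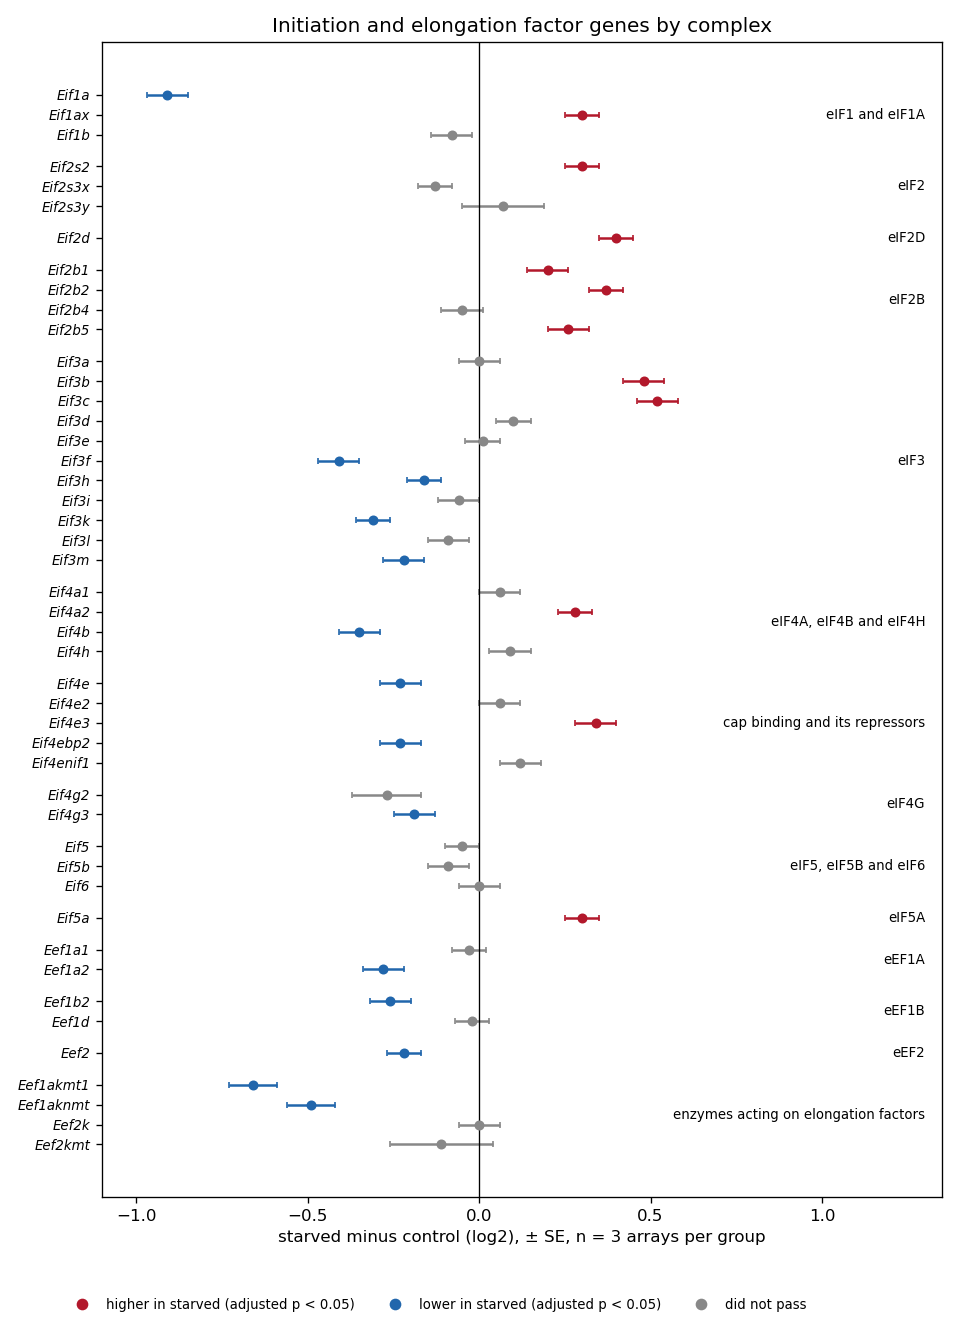
Change in starved against control cells (log2, x axis) of the 46 factor genes (y axis), grouped by complex, with bars for the standard error of 3 arrays per group. Red points rose, blue points fell and grey points did not pass an adjusted p of 0.05; Eif1a lies lowest at -0.91 and Eif3c highest at 0.52.

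The genes of eIF1A, which steadies the scanning complex and takes part in start codon recognition, moved in opposite directions. Eif1a had the largest change of all factor genes. It stood at 10.25, 10.19 and 10.25 in the control arrays and at 9.31, 9.23 and 9.40 in the starved arrays. All starved arrays lay far below the control arrays, and the gene fell by 0.91 ± 0.06 (SE), or 1.89-fold (limma adjusted p = 2.54e-05). Its brightest probe set is of a type that can match several transcripts, and the other, which is not of that type, fell by 1.08 ± 0.08. Eif1ax, the copy on the X chromosome, read 10.47, 10.50 and 10.48 in control and 10.85, 10.75 and 10.77 in starved cells. The groups did not overlap, and the rise was 0.30 ± 0.05 (adjusted p = 0.00288). The dimmer probe set of Eif1ax differed by -0.12 ± 0.06 without passing, and the mean of both probe sets did not pass (0.09, adjusted p = 0.202). The products of the paralogs are closely alike, and cross-hybridisation between their probe sets was not tested. Eif1b, a relative of the start-site factor eIF1, differed by -0.08 ± 0.06 without passing.

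Genes of eIF2B, which reloads eIF2 for another round, were mostly higher. Of the 4 measured genes of eIF2B, 3 rose (75.0%, against 20.8% of all genes) and 1 did not pass. Eif2b2, for the beta subunit, rose from 9.51, 9.45 and 9.50 in the control arrays to 9.84, 9.88 and 9.83 in the starved arrays. Every starved array was above every control array, by 0.37 ± 0.05 on average (adjusted p = 0.000932), and all 3 probe sets of the gene rose. Eif2b5, for the catalytic epsilon subunit, was at 9.58, 9.49 and 9.60 in control and at 9.75, 9.84 and 9.87 in starved cells. These groups were also apart, with a rise of 0.26 ± 0.06 (adjusted p = 0.0107). Eif2b1, for the regulatory alpha subunit, rose by 0.20 ± 0.06 (adjusted p = 0.0257), a call lost without control replicate 1, starved replicate 2 or starved replicate 3 (highest adjusted p over its alternatives 0.0874). Eif2b4, for the delta subunit, differed by -0.05 ± 0.06.

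Of the 3 measured genes of eIF2 itself, 1 rose (33.3%, against 20.8% of all genes) and 2 did not pass. Eif2s1, for its alpha subunit, was not among the genes analysed. Eif2s2, for the beta subunit that binds eIF5, rose by 0.30 ± 0.05, from 11.78 ± 0.02 (SD) to 12.08 ± 0.04 (SD), and a dimmer probe set also rose (0.21 ± 0.06), while the other 4 of its 6 probe sets differed by 0.09 to 0.19 without passing and the average of all was 0.18. Eif2s3x, for the gamma subunit that binds GTP, differed by -0.13 ± 0.05 without passing (adjusted p = 0.0807). It passed under 6 alternatives, among them without dim probe sets and with a second quantile normalization (adjusted p over its alternatives 0.00618 to 0.204). Eif2s3y, its copy on the Y chromosome, had means of 2.86 and 2.93 and was the only factor gene under 5 in both groups. Eif2d encodes a factor that can place tRNA in the ribosome without eIF2 and takes part in recycling. It read 9.14, 9.18 and 9.08 in control and 9.52, 9.53 and 9.56 in starved cells. The groups were well apart (0.40 ± 0.05, adjusted p = 0.000691), and its 2 other probe sets above 5 rose as well, by 0.42 and 0.35.

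The genes of eIF3, the largest initiation factor and the platform on which the others gather, split in both directions. 2 of 11 measured subunit genes rose (18.2%, against 20.8% of all genes), 4 fell (36.4%, against 20.1%) and 5 did not pass. Eif3c, for a subunit that contacts eIF1 and eIF5, had values of 12.01, 12.02 and 12.12 in control and 12.52, 12.59 and 12.60 in starved cells. It had the largest rise of the factor genes, 0.52 ± 0.06 (adjusted p = 0.000271), and its 4 probe sets all rose, by 0.52 to 0.76. Eif3b, for the subunit that holds the eIF3b, eIF3g and eIF3i module, was at 9.91, 9.82 and 9.97 in control and 10.37, 10.37 and 10.39 in starved cells. The starved arrays agreed closely and lay above all controls, by 0.48 ± 0.06 (adjusted p = 0.000457).

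The subunit genes that fell all belong to the octamer of eIF3, which also holds eIF3a, eIF3c, eIF3e and eIF3l. Of its 8 genes 1 rose, 4 fell and 3 did not pass. Eif3f, one of its MPN-domain subunits, stood at 12.29, 12.38 and 12.27 in control and at 11.96, 11.82 and 11.94 in starved cells, and fell by 0.41 ± 0.06 (adjusted p = 0.00148). Eif3k read 11.17, 11.18 and 11.15 in control and 10.88, 10.83 and 10.85 in starved cells, and fell by 0.31 ± 0.05 (adjusted p = 0.0018). In both genes the groups were separate. Eif3m fell by 0.22 ± 0.06 (adjusted p = 0.017) and did not pass without starved replicate 2 (adjusted p = 0.0636). Both probe sets of Eif3m are of a type that can match several transcripts. Eif3h fell by 0.16 ± 0.05 (adjusted p = 0.0381), and this call was lost on leaving out any array (highest adjusted p over its alternatives 0.132). Eif3a, for the scaffold subunit, did not pass in any of 4 probe sets: the brightest was at 11.02, 11.06 and 11.15 in control and 11.03, 11.07 and 11.10 in starved cells, and the other 3 differed by 0.01 to 0.07. Eif3d, Eif3e, Eif3i and Eif3l differed by 0.10, 0.01, -0.06 and -0.09 without passing. Eif3d passed as higher with an intensity trend and robust moderation (adjusted p = 0.0305) and without moderation (adjusted p = 0.0362).

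**Figure D2:**
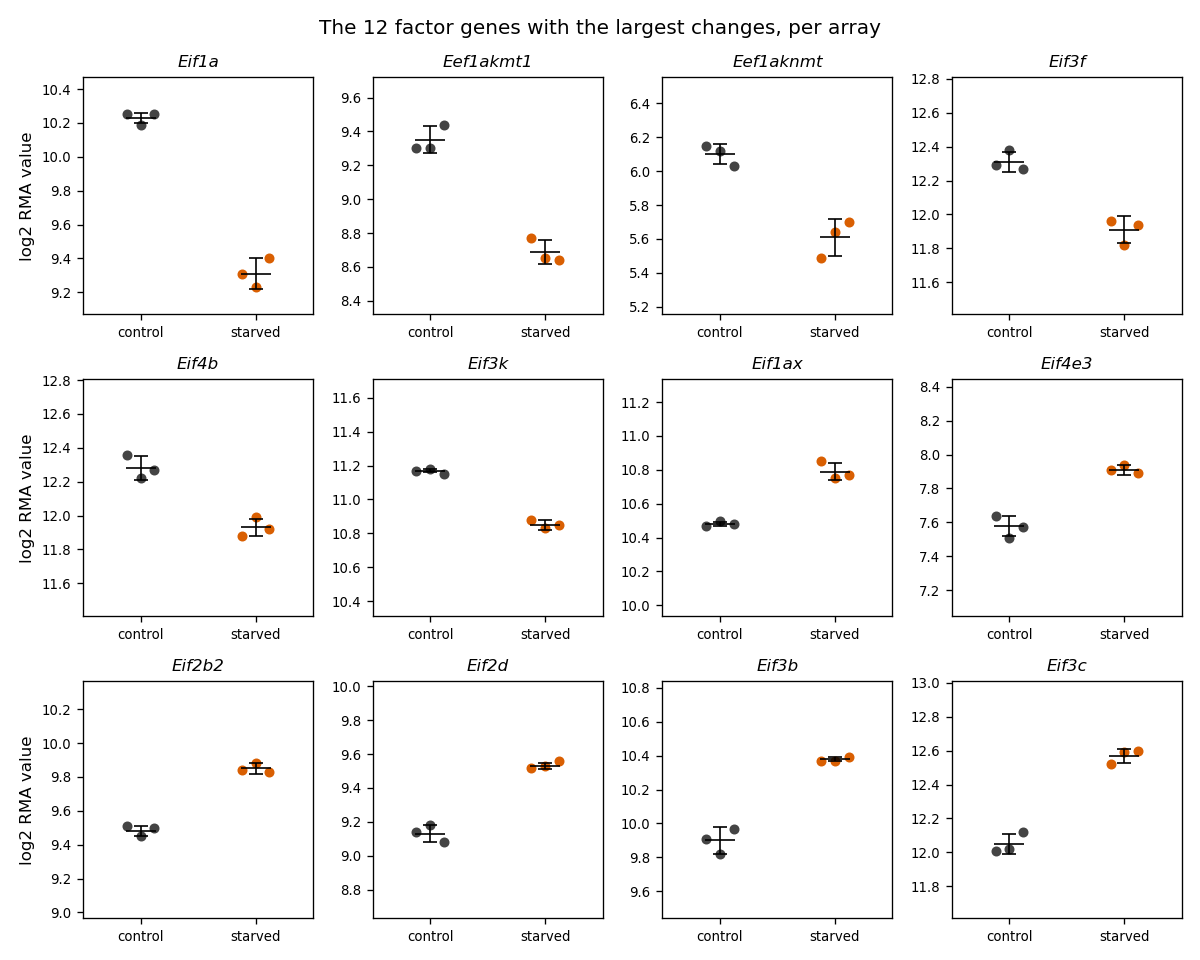
Log2 RMA value (y axis, every panel spanning the same range around its own centre) of each control and starved array for the 12 factor genes with the largest changes among those that passed and whose groups did not overlap. Points are arrays, and the black lines give the mean and SD of 3 arrays; 6 genes fell and 6 rose.

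Genes for the helicase eIF4A and its helpers gave a mixed picture. Eif4a1, the main helicase gene, was at 12.61, 12.65 and 12.68 in control and 12.65, 12.73 and 12.74 in starved cells, groups that met at 12.65 to 12.68 (0.06 ± 0.06, adjusted p = 0.457). Its paralog Eif4a2 rose, from 11.89, 11.88 and 11.86 to 12.21, 12.13 and 12.13 (0.28 ± 0.05, adjusted p = 0.00386), with the groups apart. Eif4b, for a protein that stimulates the helicase, read 12.36, 12.22 and 12.27 in control and 11.88, 11.99 and 11.92 in starved cells. It fell by 0.35 ± 0.06 (adjusted p = 0.00247), and its dimmer probe sets fell by 0.43 and 0.61. Eif4h, for a related helper, differed by 0.09 ± 0.06 without passing in any of 3 probe sets.

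Among genes of cap recognition, Eif4e and its repressor gene Eif4ebp2 were both lower. Eif4e, for the cap-binding factor, was at 10.40, 10.49 and 10.41 in control and 10.25, 10.17 and 10.19 in starved cells (-0.23 ± 0.06, adjusted p = 0.0138). The groups did not overlap, but the call was lost without control replicate 2, without starved replicate 2 and when its probe sets were averaged (highest adjusted p over its alternatives 0.103). Eif4ebp2, whose product keeps eIF4E from eIF4G, read 8.58, 8.46 and 8.60 in control and 8.29, 8.34 and 8.31 in starved cells (-0.23 ± 0.06, adjusted p = 0.0165). All starved arrays were below the controls, and the call was lost without control replicate 1 or starved replicate 1 (highest adjusted p over its alternatives 0.0548). Eif4e3, for a divergent cap-binding relative, rose from 7.64, 7.51 and 7.57 to 7.91, 7.94 and 7.89. The groups were separate, with a rise of 0.34 ± 0.06 (adjusted p = 0.0022), and its second probe set rose by 0.45 ± 0.08. Eif4e2, for the repressive relative 4EHP, differed by 0.06 ± 0.06 in its brightest probe set while a dimmer one fell by 0.44 ± 0.09, and Eif4enif1, for the eIF4E transporter, differed by 0.12 ± 0.06 without passing.

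Neither measured scaffold gene of the eIF4G family had a firm call, and Eif4g1 was not among the genes analysed. Eif4g3 fell by 0.19 ± 0.06 (adjusted p = 0.0437), and leaving out any array ended the call (highest adjusted p over its alternatives 0.127). Eif4g2, for the relative DAP5 that lacks the eIF4E-binding part, differed by -0.27 ± 0.10 without passing (adjusted p = 0.0568), with values of 12.22, 12.25 and 12.03 in control and 11.99, 11.98 and 11.71 in starved cells. The lowest array of each group, replicate 3 in both, lay well below its fellows, and the gene passed without control replicate 3 and under 4 other alternatives (adjusted p over its alternatives 0.0169 to 0.931). Its other probe sets differed by -0.04 to 0.20 without passing.

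The 3 genes of subunit joining and its control did not pass in their brightest probe sets. Eif5, for the protein that makes eIF2 hydrolyse GTP at the start codon, stood at 10.21, 10.21 and 10.14 in control and at 10.15, 10.13 and 10.12 in starved cells (-0.05 ± 0.05). Its dimmer probe sets differed from this: 2 rose, by 0.34 ± 0.07 and 0.37 ± 0.06 (adjusted p = 0.0049 and 0.0021), and 1 differed by -0.15 ± 0.06. No direction can be given for Eif5. Eif5b differed by -0.09 ± 0.06, while its dimmest probe set fell by 0.53 ± 0.08 and the average of its probe sets passed (-0.25, adjusted p = 0.0187). Eif6, for a factor that keeps the ribosomal subunits apart, read 10.19, 10.19 and 10.30 in control and 10.19, 10.22 and 10.27 in starved cells, with groups that overlapped throughout.

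Eif5a, for the hypusine-bearing factor that helps ribosomes through difficult peptide bonds, rose. Its values were 12.74, 12.70 and 12.72 in control and 13.06, 13.01 and 12.99 in starved cells. The groups were clearly apart (0.30 ± 0.05, adjusted p = 0.00251), and its second probe set rose by 0.36 ± 0.06. Both probe sets are of a type that can match several transcripts, so Eif5a was not measured once such probe sets were left out. Dhps, whose enzyme makes the first step of hypusine, rose by 0.34 ± 0.07 (adjusted p = 0.0048).

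**Figure D3:**
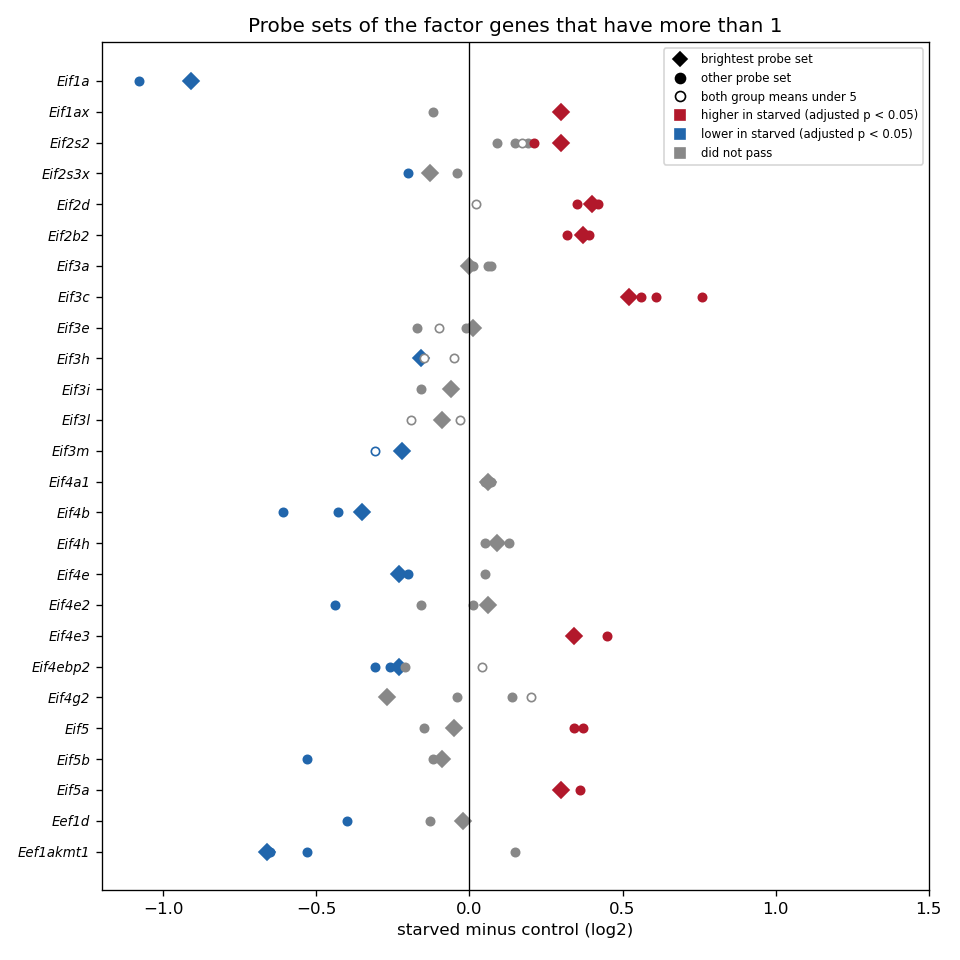
Change in starved against control cells (log2, x axis) for every probe set of the 26 factor genes with more than 1 (y axis). Diamonds are the brightest probe set, circles the others and open circles those with both group means under 5; in 0 genes did probe sets pass in opposite directions, while Eif5, Eif5b, Eif4e2, Eef1d and Eif2s3x had a dimmer probe set that passed beside a brightest one that did not.

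Elongation factor genes were lower where they passed. Eef1a1, for the ubiquitous eEF1A, was at 14.36, 14.34 and 14.33 in control and 14.33, 14.30 and 14.32 in starved cells. The arrays lay within 14.30 to 14.36, near the top of their range, and the gene differed by -0.03 ± 0.05 (adjusted p = 0.721). Eef1a2, the form of muscle and nerve, read 6.99, 7.05 and 6.94 in control and 6.64, 6.75 and 6.74 in starved cells. It fell by 0.28 ± 0.06 (adjusted p = 0.00651) with the groups apart. Eef1b2, for the exchange subunit of eEF1B, fell by 0.26 ± 0.06, from 13.00 ± 0.04 (SD) to 12.74 ± 0.05 (SD). Eef1d, for another exchange subunit, differed by -0.02 ± 0.05 in its brightest probe set, while a dimmer one fell by 0.40 ± 0.07 and the mean of its probe sets passed (-0.18, adjusted p = 0.0115). Eef2, for the translocation factor, was at 13.47, 13.44 and 13.47 in control and 13.25, 13.23 and 13.23 in starved cells. The replicates agreed closely, and the gene fell by 0.22 ± 0.05 (adjusted p = 0.00871).

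Enzymes that modify elongation factors gave the next largest falls after Eif1a. Eef1akmt1, for a methyltransferase of a lysine in eEF1A, read 9.30, 9.30 and 9.44 in control and 8.77, 8.65 and 8.64 in starved cells. The groups were far apart (-0.66 ± 0.07, or 1.58-fold, adjusted p = 0.000158), and 2 further probe sets fell by 0.65 and 0.53. Its dimmest probe set differed by 0.15 ± 0.15, and the average of all 4 was -0.42. Eef1aknmt, for the enzyme that methylates the amino terminus and a lysine of eEF1A, was at 6.15, 6.12 and 6.03 in control and 5.49, 5.64 and 5.70 in starved cells. It fell by 0.49 ± 0.07 (adjusted p = 0.00107) with no overlap between groups. Eef2k, for the kinase that inactivates eEF2, stood at 7.66, 7.63 and 7.75 in control and at 7.66, 7.71 and 7.68 in starved cells, with groups that overlapped and a difference of 0.00 ± 0.06. Eef2kmt, for the methyltransferase of eEF2, varied widely between arrays and differed by -0.11 ± 0.15.

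Many messages of the translation apparatus begin with a terminal oligopyrimidine tract (TOP) and are translated under the control of mTORC1. A list of 9 factor genes known to carry such a tract, chosen with earlier results of these data known, had 8 measured members: Eef1a1, Eef1b2, Eef1d, Eef2, Eif3e, Eif3f, Eif3h and Eif4b. Of these 0 rose, 5 fell and 3 did not pass, with a median change of -0.19. Among the other 38 factor genes 11 rose and 9 fell, with a median of 0.00. The list includes Eif3h, whose call was lost on leaving out any array. Beside them stood 48 genes with symbols of cytosolic ribosomal proteins, a class rich in TOP messages, though not every such gene need carry the tract. They had a median of -0.10, with 1 higher and 9 lower, and 3 lay under 5 in both groups. Their share of lower genes, 18.8%, was close to the 20.1% of all genes, and 20.8% of them passed in either direction, against 40.8%.

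Promoter sequences from RefSeq (GRCm38.p6, 250 bases before to 50 after an annotated start) were found for 37 of the 46 factor genes and for 9882 of the 12393 genes measured, with the first start listed used for each. The E-box letters CACGTG, which read the same on both strands and are bound by MYC and MiT/TFE factors among others, were present in 9 of 37 factor promoters (24.3%), against 9.33% of the promoters of all genes measured. They were found in 4 of the 11 that fell (36.4%), 0 of the 10 that rose and 5 of the 16 that did not pass (31.2%). The letters CCGGAAG, of the ETS type and searched on both strands, were in 11 of 37 (29.7%) against 15.0%, with 3 each among those that rose and fell. TGATGNAA, of the type bound by ATF4 with C/EBP factors, was in 1 of 37 (2.7%) against 2.62%. The windows that hold the E-box letters are printed to show which genes carry them, each with the motif in capitals and 12 bases on either side, 5′ to 3′ on the strand of the gene. Those of genes that fell were Eef1aknmt (chr1:162548475-162548504, minus strand), Eef2 (chr10:81176576-81176605, plus), Eif3f (chr7:108934335-108934364, plus) and Eif3k (chr7:28981915-28981944, minus).
Eef1aknmt: gtgtggctgctgCACGTGgggcgcggaccg
Eef2: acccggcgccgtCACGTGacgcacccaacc
Eif3f: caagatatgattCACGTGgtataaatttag
Eif3k: ctggaaggaaatCACGTGgtagacaaaaaa
Those of genes that did not pass were Eef2k (chr7:120842788-120842817, plus), Eif1b (chr9:120492570-120492599, plus), Eif4a1 (chr11:69672595-69672624, minus) and Eif4h (chr5:134639488-134639517, minus), and the window of Eif3a lies after its start and is not printed.
Eef2k: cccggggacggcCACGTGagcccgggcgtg
Eif1b: cgtgcggacggtCACGTGgcggcggcgcgc
Eif4a1: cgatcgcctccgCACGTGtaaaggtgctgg
Eif4h: cggccgccgcacCACGTGggccgcagagcg
The motif lay 24 to 189 bases before the annotated start in these 8 windows. A match is a stretch of letters and not a measured binding site.

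Genes that control these factors or act beside them were taken from 3 lists. Of 25 measured genes (30 listed) of translation control, recycling and repression 5 rose and 12 fell (median -0.21). The share that rose was close to the 20.8% of all genes, while 48.0% fell, against 20.1%. Among the kinases of eIF2, Eif2ak4, for the amino acid sensor GCN2, fell by 0.31 ± 0.08 (adjusted p = 0.015), a call lost without moderation of the spread (adjusted p = 0.0606). Eif2ak1 (-0.13), Eif2ak2 (0.00) and Eif2ak3 (-0.21) did not pass, though Eif2ak3 passed without starved replicate 1 and under 3 other alternatives (adjusted p over its alternatives 0.0187 to 0.406). Impact, for an inhibitor of GCN2, fell by 0.56 ± 0.05, and Ppp1r15b, for the constitutive partner of the eIF2 phosphatase, fell by 0.58 ± 0.07 (-0.33 when its probe sets were averaged). Ppp1r15a, its stress-induced relative, differed by 0.18 ± 0.06 without passing (adjusted p = 0.0625, and 0.032 to 0.173 over its alternatives). Of the transcription factors made when eIF2 is phosphorylated, Atf4 differed by -0.05 ± 0.06 in its message, and Ddit3, a target of it, was higher by 0.92 ± 0.06.

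In the same list repressors of the cap and of the poly(A)-binding protein were among the genes that rose. Eif4ebp1, for the main repressor of eIF4E and a known ATF4 target, rose by 0.51 ± 0.06 (adjusted p = 0.000257), or 0.25 when its probe sets were averaged, whereas its relative Eif4ebp2 fell. Paip2 and Paip2b, for proteins that displace the poly(A)-binding protein from messages, rose by 0.47 ± 0.06 and 0.42 ± 0.06, while Pabpc1, for that protein, was at 14.05 in both groups. Pdcd4, for an inhibitor of eIF4A, fell by 0.27 ± 0.06, and Eef1e1, for a protein of the tRNA synthetase complex, fell by 0.30 ± 0.06. Rps6, for the ribosomal protein phosphorylated by S6 kinases, fell by 0.53 ± 0.06 in its brightest probe set, and its averaged change was -0.25.

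Of 15 measured genes (21 listed) for termination, ribosome rescue and the modification of factors, 2 rose and 5 fell (median -0.12). The share that passed, 46.7%, was near the 40.8% of all genes. Pelo, for a protein that frees stalled ribosomes, fell by 0.70 ± 0.10. Dnajc24 and Dph7, which act in making the diphthamide of eEF2, fell by 0.51 ± 0.09 and 0.31 ± 0.07 (Dph7 -0.17 when averaged), and Trmt112, for the partner of several methyltransferases, by 0.30 ± 0.05. Etf1, for the release factor that reads stop codons, fell by 0.34 ± 0.06, but the mean of its probe sets did not pass (-0.04, adjusted p = 0.586). Of 6 mitochondrial translation factor genes 1 rose, the recycling factor gene Mrrf (0.21 ± 0.05), and 2 fell, Mtfmt (-0.38 ± 0.08), for the formylase of the initiator tRNA, and the elongation factor gene Tufm (-0.27 ± 0.07). Mrrf did not pass without starved replicate 3 (adjusted p = 0.0579), nor Tufm when its probe sets were averaged (adjusted p = 0.188).

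**Figure D4:**
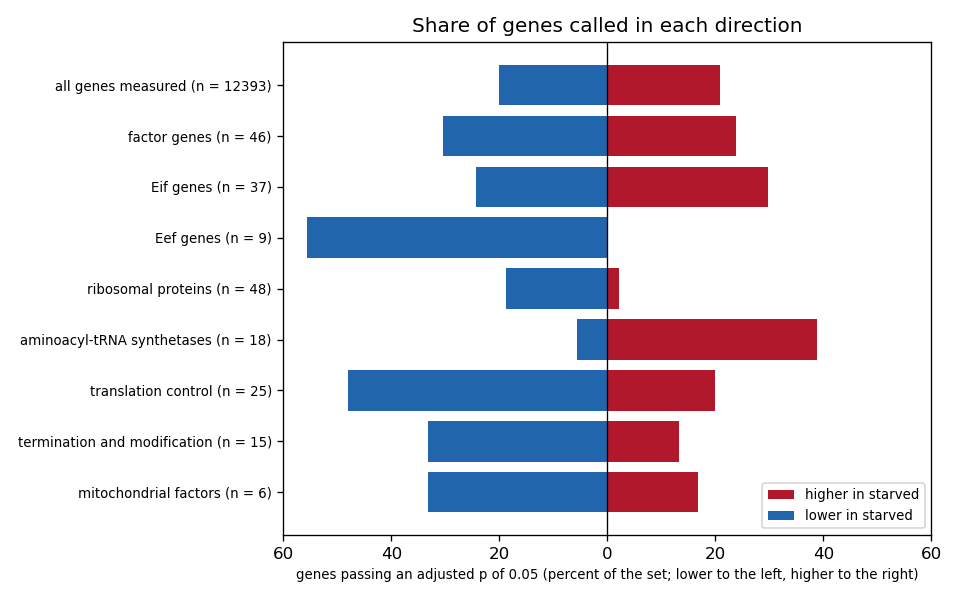
Percent of the genes of each set that passed an adjusted p of 0.05, drawn to the right where higher and to the left where lower in starved cells, with the number of genes in each set. The Eef genes (n = 9, 4 of them for enzymes acting on elongation factors) had 55.6% lower and 0 higher. The aminoacyl-tRNA synthetase genes (n = 18) had 38.9% higher and 5.56% lower. Among all genes measured 20.8% were higher and 20.1% lower.

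The genes of cytosolic aminoacyl-tRNA synthetases, which charge the tRNAs that eEF1A carries, stood beside the factors as follows. Of 18 measured 7 rose and 1 fell, with a median of 0.10, led by Lars (0.64 ± 0.06), Vars (0.62 ± 0.09), Nars (0.43 ± 0.05), Eprs (0.42 ± 0.06), Farsb (0.42 ± 0.07, or 0.64 once probe sets able to match more than 1 transcript were left out) and Kars (0.38 ± 0.06). Of the synthetase genes 44.4% passed in either direction, near the 40.8% of all genes. By direction, 38.9% were higher against 20.8% of all genes, and 5.56% were lower against 20.1%. The Eif genes had 11 of 37 higher and 9 lower (median 0.00). The Eef genes, 4 of them for enzymes acting on elongation factors, had 0 of 9 higher and 5 lower (median -0.22). Both are set beside the synthetases without a test between the sets. On leaving out any array, 10 of the 11 factor genes that rose and 9 of the 14 that fell kept their call. With a threshold of 0.01 in place of 0.05, 9 of the 46 were higher and 9 lower.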

How the data were processed

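RNA of 3 starved and 3 control samples was hybridised as biotin-labelled cRNA to 6 Affymetrix mouse arrays. The deposited values are log2 intensities from RMA, run by the authors with affy per the submitters' processing notes, which state no versions. Of 22690 probe sets 64 Affymetrix controls were left out and 22626 tested. The platform annotation named 1 gene for 20380 of them, several for 691 and none for 1555, and a check of symbols through Entrez identifiers changed 0. Groups came from the titles. The test was limma (version 3.58.1, R 4.3.3; lmFit, eBayes), two-sided, without covariates and with Benjamini-Hochberg adjustment over all tested probe sets. Each gene is shown by its probe set with the highest mean over the arrays.

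The members and lists were chosen with earlier results of these data known. All members are named. Values per array are given for the 12 with the largest changes among those that passed without overlap and lay at 5 or higher in a group, and for a fixed set of central factors, part of which was not analysed here. Other genes were named from each list (up to 6 of the largest changes that passed) or from a fixed set. The fit was tested on simulated data. Precision is limited by the number of arrays. No batch or scan date was used, so an effect of batch cannot be told here from one of group. How batches fell across the groups was not examined. Figures were made with matplotlib 3.10.9 (Python 3.11.15).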

Additional observations from a re-analysis of the deposited data

How the results depend on the processing

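The counts of factor genes, 11 higher and 14 lower, were recomputed under 18 alternatives, and no factor gene reversed a call. Leaving out each array in turn gave 10 to 11 higher and 10 to 13 lower, and the median change ran from -0.043 to -0.021. A threshold of 0.01 left 9 lower, and a minimum change of 0.5 left 1 higher and 2 lower, as it removes small changes by construction. The median change of -0.04 was -0.058 with arrays centred on their medians and -0.059 when the probe sets of each gene were averaged. The cause of these shifts was not tested. 8 of the genes that rose and 9 of those that fell kept their call under every alternative but the minimum change, where they were measured. The replicate number as a block gave 11 higher and 13 lower and a median of -0.04. It ended the calls of Eif3h (adjusted p = 0.0822) and Eif4g3 (0.0874), added that of Eif4g2 (0.0169) and changed no other call among the named genes. The numbers share no stated source, and same-numbered arrays did not deviate together (correlations of -0.0944, 0.0148 and -0.00833). Some calls with changes near 0.2 did not hold on leaving out an array, such as those of Eif2b1 (0.20), Eif3h (-0.16) and Eif4g3 (-0.19). That of Eef2 (-0.22) held.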
